A study of Mus musculus with 18 samples.

Results

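The comparison set the hearts of pregnant and just delivered mice against the hearts of mice that had run on wheels. Its members were the 9 arrays of mid-pregnancy (MP, day 11 of gestation), late pregnancy (LP, days 18 to 19) and immediate postpartum (0PP, the first hours after birth), set against the 6 arrays of voluntary wheel running for 7 days (7EX) or 21 days (21EX), 15 of the 18 arrays of the series. The other 3 arrays were of sedentary virgin females at diestrus (NP/Sed), and they entered the fit only as a further group and as a point of comparison. All mice were wild type C57Bl/6 females of 3 to 4 months, no group carried a transgene or a drug, and each array held left ventricular RNA pooled from 2 to 3 hearts, so that each group had 3 pools and the spread described here is that between pools. The labels do not say that running mice were staged by estrous cycle, and the time of day of collection is not given in the sources used here. Age range, sex and strain were the same on both sides.

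The stages were weighted equally and the running durations were weighted equally, so a difference is the mean of the MP, LP and 0PP means minus the mean of the 7EX and 21EX means, on the log2 scale, where 1 is a doubling. Values are robust multi-array average (RMA) values of Affymetrix probe sets, and levels are compared between groups for 1 probe set, never between genes. To be called, a gene needed 1 or more probe sets with a change of at least 75% (0.807 on the log2 scale) and an adjusted p under 0.05 (limma, Benjamini-Hochberg, 45037 probe sets tested). "Rose" and "fell" are used of genes past the adjusted p, the level also used for the members of gene lists. They describe pregnancy relative to exercise, not a change from NP/Sed, unless NP/Sed is named. Errors of differences are standard errors of the fit, and where 3 values of a side are given they are its lowest, median and highest array.

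Pregnancy and endurance running both enlarge the left ventricle without disease, but the timing of the load and the hormones differ. In pregnancy blood volume and heart rate stay raised day and night while adrenal, placental and ovarian steroids climb, and the heart shifts its fuel toward fatty acids. A running mouse loads its heart in bouts, mostly in the dark phase, and running itself can move the clock that sets daily rhythms of gene expression in heart muscle.

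Ventricular muscle markers were alike on both sides. The mean log2 level of 10 ventricular cardiomyocyte markers lay between 13.92 and 13.96 in the 9 pregnancy arrays and between 13.92 and 13.96 in the 6 exercise arrays, and 0 of the 10 passed the test in limma (0 also at an unadjusted p under 0.05). These markers lay high, from 12.17 (Ryr2) to 14.77 (Myl2), where the mean over all genes was 6.22 to 6.26 in pregnancy arrays. Whether probe sets at such levels could show a difference was not tested. Atrial markers spread more within each side (7.31 to 8.44 in pregnancy arrays and 7.42 to 8.33 in exercise arrays), and 0 of 7 passed (2 at an unadjusted p under 0.05). Of skeletal muscle, smooth muscle and pericyte, neutrophil and mesothelial markers 0 passed as well (1 of 10, 5 of 10, 0 of 7 and 2 of 8 at an unadjusted p under 0.05). In these bulk samples fewer cells of a type and less RNA per cell cannot be told apart.

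Measures of RNA quality differed between the sides, with overlapping ranges, and stand beside everything that follows. The signal of the beta-actin control probe sets at the 3' end minus that at the 5' end, which grows as RNA is degraded or copied less completely, was 1.29 in the 9 pregnancy arrays (SD 0.050, range 1.17 to 1.35) and 1.14 in the 6 exercise arrays (SD 0.069, range 1.05 to 1.22). The difference was 0.152 (p = 0.000599, exact permutation test, two-sided, 5005 splits of the arrays). The NP/Sed arrays spanned 1.11 to 1.36. The same measure for Gapdh averaged 0.011 in pregnancy and -0.033 in exercise (p = 0.0278, two-sided exact permutation test), and array medians averaged 4.97 in pregnancy and 4.98 in exercise (p = 0.586, same test). With the beta-actin measure as a covariate, all 43 genes called below kept their sign, their median absolute difference was 0.82 in place of 0.94, their median standard error was 0.21 in place of 0.13, and 4 of them remained called. The difference moved by over 1.5 times for 8 of them (Car3, Adipoq, Per1, Nr4a1, Ccn3, Cdk1, Cenpa and Ift122). The part of RNA quality in the results was not tested beyond this fit, which takes the measure and the sides together.

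**Figure D1:**
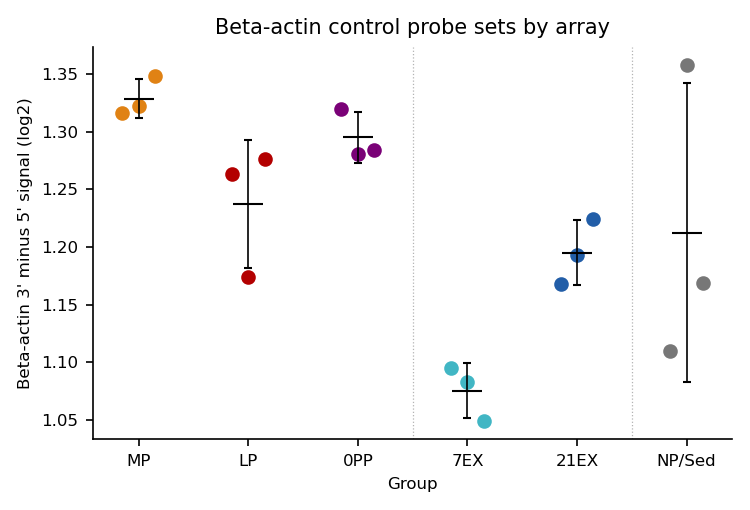
Beta-actin 3' minus 5' signal (log2, vertical axis) for each of the 18 arrays by group, with points for arrays and black marks for the group mean and SD. The 9 pregnancy arrays lie between 1.17 and 1.35, the 6 exercise arrays between 1.05 and 1.22.

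Of 18193 genes, 43 were called (0.236%), 32 of them higher (0.176%) and 11 lower (0.0605%) in pregnancy. All 43 had the same direction for MP, LP and 0PP against 7EX and against 21EX, as had 21.5% of all probe sets. The 43 were selected on the mean of these differences, so their shared direction is not separate evidence. Without the 75% limit, 918 genes passed the adjusted p (5.05%), 407 higher (2.24%) and 511 lower (2.81%), and 815 of these (4.48%), 370 higher (2.03%) and 445 lower (2.45%), had 1 direction in all 6 stage-by-duration differences. The median difference over all genes was -0.01. The shares of 2.24% higher and 2.81% lower also apply beside pooled list counts given below without a share. At an unadjusted p under 0.05, 1703 of the 18193 genes were higher and 2421 lower, beside which list counts at that level stand. With the beta-actin covariate no such count over all genes was made, so list counts there have no share beside them. Among the 32 genes called higher 9 were on the list of glucocorticoid-responsive genes and 7 on the clock list, with Per1 on both, and 17 were on neither. Among the 11 called lower 2 were clock genes, 5 cell division genes and 4 on neither list.

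Among the 12 largest rises were the glucocorticoid-induced genes Zbtb16, Fkbp5 and Mt2, the clock genes Dbp and Per2, the actin-associated gene Fam107a, the immediate early gene Fos, the metalloproteinase inhibitor Timp4, the adipocyte genes Adipoq and Car3, and Rhobtb1 and Coq10b. The 11 that fell were the clock activators Arntl and Npas2, the mitotic genes Cks2, Cenpa, Cdk1, Ube2c and Cdc20, the apelin receptor Aplnr, the transcription factor Sox4, the ciliary transport gene Ift122 and the brain-type fatty acid binding protein Fabp7.

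**Figure D2:**
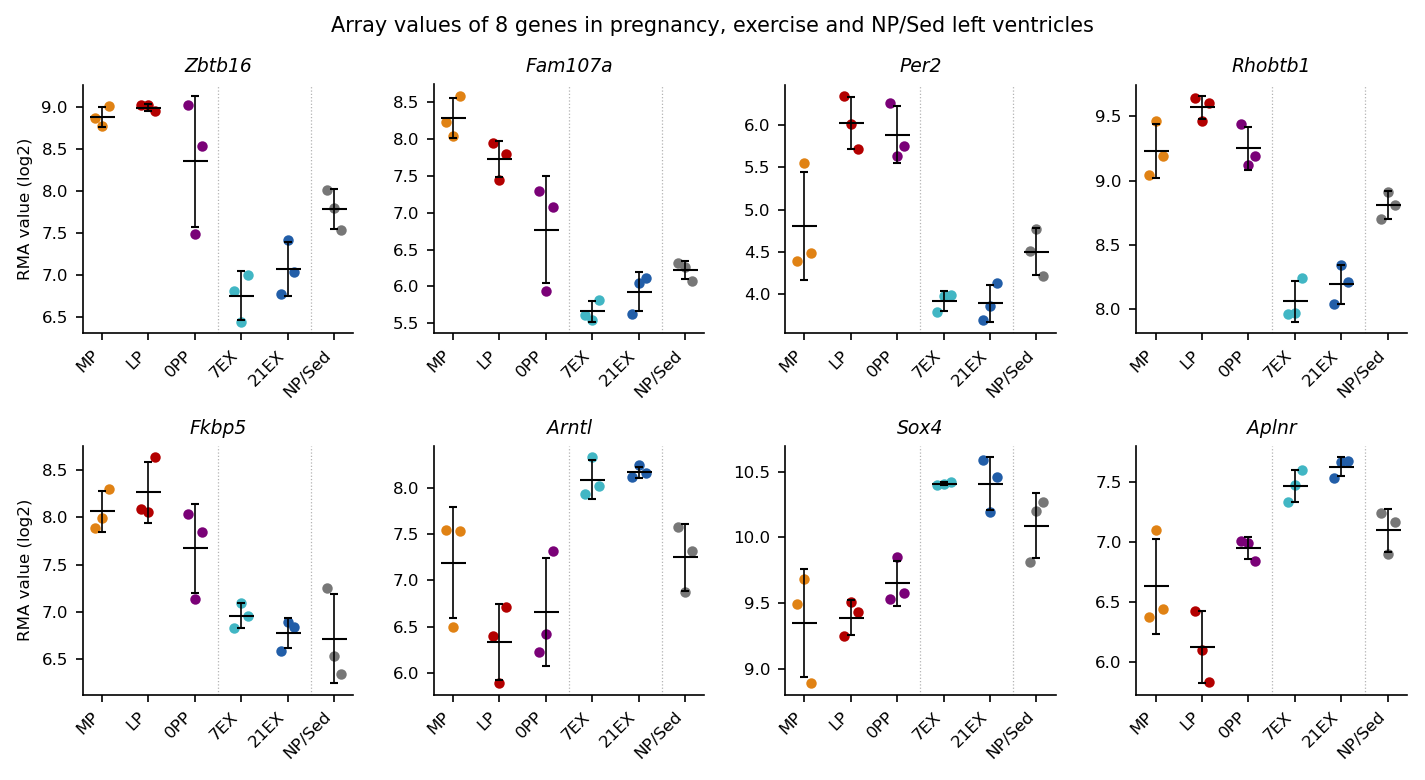
RMA values (log2, vertical axis) of 8 genes in each array, with the 3 pregnancy stages at the left, the 2 running groups in the middle and NP/Sed at the right, and black marks for group mean and SD (n = 3 arrays). In Zbtb16, Per2, Rhobtb1 and Fkbp5 all 9 pregnancy arrays lie above all 6 exercise arrays, and in Arntl, Sox4 and Aplnr all 9 lie below.

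Zbtb16, a zinc finger transcription factor that is a strong target of glucocorticoid and progesterone receptors, had the largest difference. Its values had a lowest, median and highest of 7.49, 8.95 and 9.02 in pregnancy arrays and of 6.44, 6.90 and 7.41 in exercise arrays, so the sides did not overlap. The difference was 1.83 ± 0.17 (3.56-fold, limma adjusted p = 8.4e-06). The stage differences were 1.97 in MP, 2.08 in LP and 1.44 in 0PP. NP/Sed arrays averaged 7.78 (SD 0.24), between the sides.

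Rhobtb1, an adaptor of a ubiquitin ligase that acts in vascular tone, had the smallest p. Its values ran from 9.04 through a median of 9.44 to 9.64 in pregnancy arrays and from 7.96 through 8.12 to 8.34 in exercise arrays. The difference was 1.22 ± 0.07 (2.33-fold, adjusted p = 9.34e-08), and MP (1.10), LP (1.44) and 0PP (1.12) each passed. Rhobtb1 stayed called with the beta-actin covariate (1.08 ± 0.12, adjusted p = 0.0046), together with Zbtb16 (adjusted p = 0.0498), Chd6 (0.0184) and Timp3 (0.0464).

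Fam107a, also known as a stress- and glucocorticoid-induced actin regulator, overlapped between the sides by 1 array. Values were 5.94, 7.80 and 8.59 (lowest, median and highest) in pregnancy arrays and 5.55, 5.72 and 6.12 in exercise arrays, and the difference was 1.80 ± 0.16 (adjusted p = 6.69e-06). The array that overlapped was 0PP-2, at 5.94, and MP, LP and 0PP differed from exercise by 2.50, 1.94 and 0.98. The 3 stages differed from each other (F test adjusted p = 0.0066).

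By stage the called genes kept their direction and varied in size. Among the 43 called genes, 25 passed the adjusted p in MP alone against exercise, 39 in LP and 30 in 0PP, and the largest of the stage differences was that of LP for 31 genes, of MP for 7 and of 0PP for 5. The stages share the 6 exercise arrays, so these counts are not independent. In each of the 3 stages 12 genes passed higher (Zbtb16, Fam107a, Per2, Rhobtb1, Coq10b, Per1, Map3k6, Chd6, Usp2, Shld1, Timp3 and Adamts1) and 3 passed lower (Aplnr, Sox4 and Cenpa), beside 0.203% and 0.115% of all genes. For 18 of the genes called higher and 4 of those called lower, a called probe set had no overlap between the 9 and the 6 arrays, where 0.366% of all probe sets were without overlap on the higher side and 0.451% on the lower side, and 0.654% and 0.885% of all genes had such a probe set. The 43 genes were selected on the same arrays and the same pooled difference. Their passes by stage and their lack of overlap are therefore not separate evidence, and the shares of all genes are of unselected genes.

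**Figure D3:**
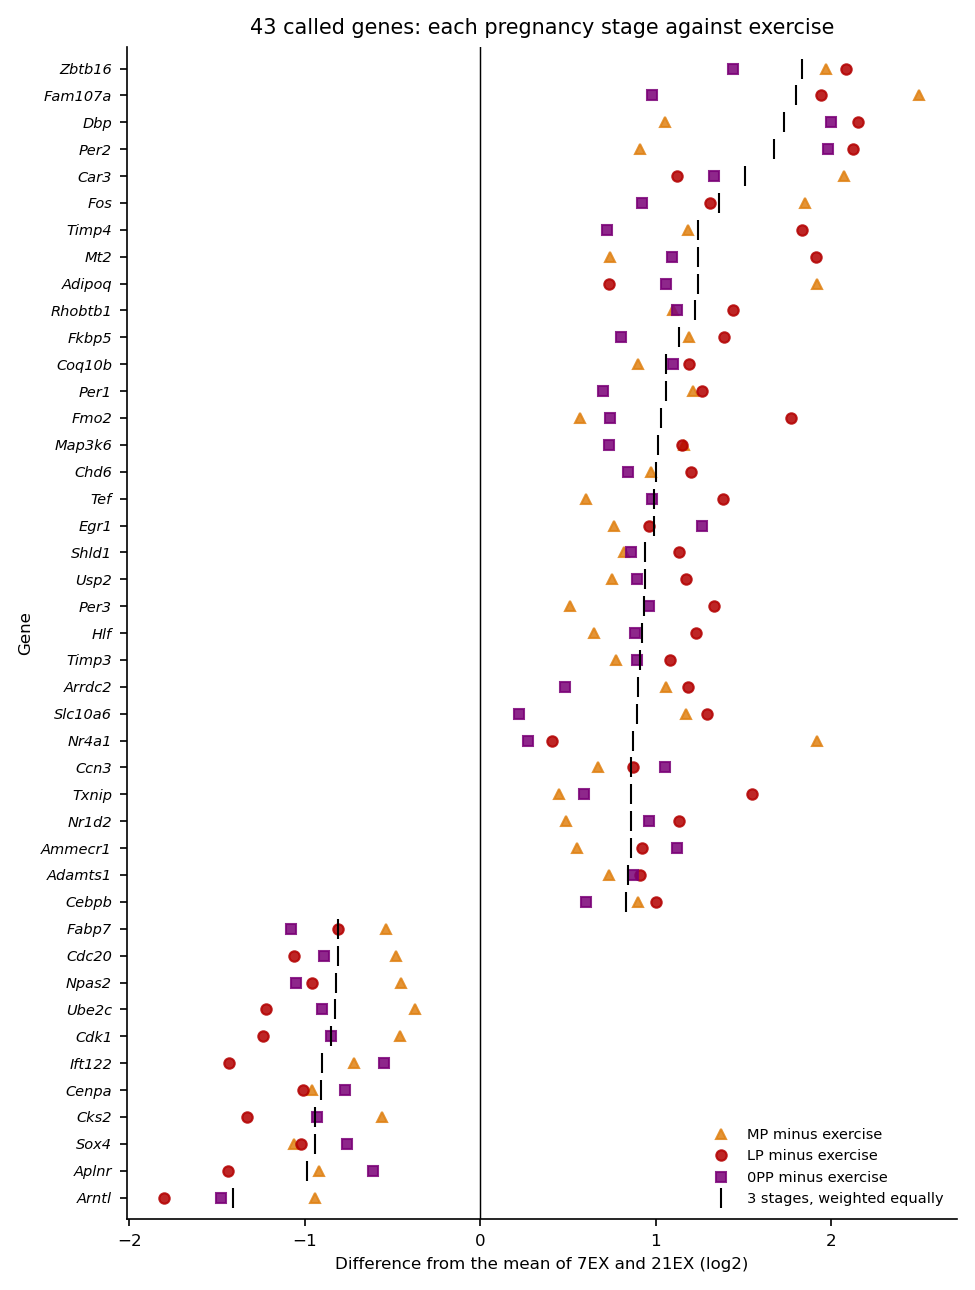
Differences from the mean of 7EX and 21EX (log2, horizontal axis) for the 43 called genes, with a triangle for MP, a circle for LP, a square for 0PP and a black tick for the 3 stages weighted equally. All 3 stage marks of each gene lie on 1 side of zero, and the LP mark is the farthest from zero for 31 genes.

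Each stage was also tested on its own with the same call rule. MP against exercise gave 48 called genes (0.264%), 41 higher (0.225%) and 7 lower (0.0385%). LP gave 137 (0.753%), 85 higher (0.467%) and 52 lower (0.286%), and 0PP gave 36 (0.198%), 22 higher (0.121%) and 14 lower (0.077%). By adjusted p alone the shares of all genes were 1.91% in MP, 7.29% in LP and 1.82% in 0PP. Without MP-3 the MP count was 27. The 0PP count was 16 without 0PP-1 and 21 without 7EX-2 or 21EX-3. With the beta-actin covariate, LP against exercise kept 107 of its 137 genes and had 122 in all, while MP and 0PP against exercise had 0 called genes each in limma. At an unadjusted p under 0.05 with the 75% limit, MP had 41 genes and 0PP 49 with the covariate, and 54 and 47 without it. The genes in common were 31 in MP and 17 in 0PP.

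Many glucocorticoid-responsive genes rose. Glucocorticoids bind a nuclear receptor that is abundant in cardiomyocytes. The list holds genes described as its targets (chaperones and feedback regulators, metallothioneins, and genes of fuel use and protein breakdown) and the receptor gene Nr3c1. Like the other lists, it was chosen with earlier results of these data known. The study relates Fkbp5 to progesterone signaling, and the part of each hormone in the list was not tested. Of 36 measured members 21 rose and 0 fell (58.3% higher, beside 2.24% of all genes), the list median was 0.55 beside -0.01 over all genes, and the arrays did not overlap for 12 members (0.654% of all genes). Stage by stage, 17 rose in MP (0.89% of all genes), 22 in LP (3.2%) and 4 in 0PP (1.04%), where 1 fell (0.786%), with list medians of 0.50, 0.69 and 0.27. The mean level of the list lay between 8.48 and 9.44 in pregnancy arrays and between 8.36 and 8.47 in exercise arrays.

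Fkbp5, the co-chaperone that dampens glucocorticoid receptor signaling, had a lowest, median and highest of 7.14, 8.03 and 8.63 in pregnancy arrays and of 6.59, 6.87 and 7.09 in exercise arrays. It rose by 1.13 ± 0.14 (adjusted p = 0.000142), with 1.19 in MP and 1.39 in LP, and 0PP had 0.80 with an adjusted p of 0.0534. Klf9, a transcription factor induced by glucocorticoids, was narrow within each side: 11.62, 11.98 and 12.06 in pregnancy arrays and 11.35, 11.42 and 11.49 in exercise arrays, a difference of 0.51 ± 0.05 (adjusted p = 1.72e-05).

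Other members moved with them. Tsc22d3, a glucocorticoid-induced leucine zipper protein that quiets inflammation, rose by 0.65 ± 0.09, and the salt-handling kinase gene Sgk1 rose by 0.72 ± 0.12. The stress kinase gene Map3k6 rose by 1.01 ± 0.11, with 6.16, 6.81 and 7.32 in pregnancy arrays and 5.65, 5.82 and 6.06 in exercise arrays. Mt2, a metal-binding metallothionein, did not overlap (10.17, 10.58 and 12.84 in pregnancy arrays; 9.32, 9.49 and 9.62 in exercise arrays; 1.24 ± 0.23, adjusted p = 0.00452), and its highest value belonged to LP-3. Mt1 rose by 0.71 ± 0.12, Irs2, an insulin receptor adaptor, by 0.58 ± 0.12, and Foxo3, a driver of atrophy programs, by 0.42 ± 0.06.

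Muscle atrophy genes gave fewer changes. Of 20 measured, 3 rose (Usp2, Fbxo31 and Hecw2) and 1 fell (Asb2), and the ubiquitin ligase gene Fbxo32 had a difference of 0.22 ± 0.13 (adjusted p = 0.502). Proteasome subunits had 2 of 46 higher (4.35%, beside 2.24% of all genes) and 0 at their probe sets of highest mean. Autophagy genes had 0 of 27 past the test (3 higher and 3 lower at an unadjusted p under 0.05). Steroid and peptide hormone receptors had 0 of 19 higher and 1 lower, the thyroid hormone receptor gene Thra. With the beta-actin covariate, 1 glucocorticoid-responsive member passed in the pooled comparison (22 at an unadjusted p under 0.05, list median 0.52) and 18 of the 22 passed in LP (list median 0.68). Without 7EX 13 rose.

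Clock genes changed in both directions. In the core loop Arntl (BMAL1) with Clock or Npas2 activates the Per and Cry repressors and the output genes Dbp, Tef and Hlf, and these repressors and outputs peak at the opposite time of day from Arntl. Of 22 members 12 rose (54.5%, beside 2.24% of all genes) and 2 fell (9.09%, beside 2.81%), the 2 being Arntl and Npas2, both of the activating arm. By stage, 3 rose and 0 fell in MP (1 lower at an unadjusted p under 0.05), 12 rose and 3 fell in LP, and 9 rose and 2 fell in 0PP. The shares of all genes were 0.89% higher and 1.02% lower in MP, 3.2% and 4.1% in LP, and 1.04% and 0.786% in 0PP. Without 7EX 6 rose, and without LP 7.

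Arntl had a lowest, median and highest of 5.89, 6.50 and 7.55 in pregnancy arrays and of 7.93, 8.14 and 8.33 in exercise arrays, with no overlap. The difference was -1.41 ± 0.18 (adjusted p = 0.000161), with -0.94 in MP, -1.80 in LP and -1.48 in 0PP. NP/Sed arrays averaged 7.25 (SD 0.36). Per2 went the other way, with 4.39, 5.72 and 6.35 in pregnancy arrays and 3.69, 3.92 and 4.13 in exercise arrays (1.67 ± 0.16, adjusted p = 1.13e-05), although its probe set of highest mean moved by 0.42. Its stages differed (F test adjusted p = 0.0177), 0.91 in MP beside 2.12 in LP and 1.98 in 0PP.

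Dbp, an output transcription factor with a very steep daily rhythm, overlapped (7.95, 9.95 and 10.49 in pregnancy arrays; 7.23, 8.05 and 8.68 in exercise arrays; 1.73 ± 0.33, adjusted p = 0.00561). Its NP/Sed arrays had 8.44, 10.08 and 8.28. Per1 rose by 1.06 ± 0.12, Per3 by 0.93 ± 0.10, Hlf by 0.92 ± 0.13, Tef by 0.99 ± 0.15 and Nr1d2, a repressor of Arntl, by 0.86 ± 0.12. Clock itself (-0.18 ± 0.06, adjusted p = 0.129), Cry1 (-0.11 ± 0.07, 0.491) and Nr1d1 (0.23 ± 0.10, 0.26) did not pass. Levels of these genes depend on the time of day, whose part in the differences was not tested. With the beta-actin covariate 0 clock genes passed in the pooled comparison (9 higher and 2 lower at an unadjusted p under 0.05), the list median was 0.18 in place of 0.30 and Per1 had 0.59 ± 0.16, and 7 higher and 1 lower passed in LP.

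The promoters of 2 clock genes that rose are shown because they hold the E-box CACGTG, the sequence that Arntl with Clock binds. Each gene has a pair of start sites in the table, and the window that holds the motif is given. The windows run from 250 bases before to 50 after the RefSeq start site, 5' to 3', in build GRCm38.p6, with the motif in capitals.
Per1 (chr11:69098699-69098998, plus strand): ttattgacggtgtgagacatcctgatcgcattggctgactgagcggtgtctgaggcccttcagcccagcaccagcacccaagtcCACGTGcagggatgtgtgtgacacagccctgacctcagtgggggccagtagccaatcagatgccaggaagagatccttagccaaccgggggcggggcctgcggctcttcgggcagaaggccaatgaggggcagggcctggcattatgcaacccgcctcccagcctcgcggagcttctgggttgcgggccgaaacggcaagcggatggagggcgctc
Tef (chr15:81802423-81802722, plus strand): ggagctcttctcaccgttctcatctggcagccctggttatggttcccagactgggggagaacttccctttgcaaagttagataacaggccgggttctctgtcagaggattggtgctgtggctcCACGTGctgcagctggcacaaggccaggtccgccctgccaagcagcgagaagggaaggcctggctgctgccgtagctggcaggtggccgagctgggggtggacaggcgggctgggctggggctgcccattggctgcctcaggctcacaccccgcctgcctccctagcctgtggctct
Among 18 clock genes with a promoter there, 6 held CACGTG, against 8.09% of all 27025 genes with a promoter; the motif is its own reverse complement, so both strands read alike. The D-box TTATGTAA, which the Dbp family binds, was in 1 of the 18 on either strand (1.11% of all genes). These are matches of letters in a short window and not measured sites.

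Cell division genes formed the largest group on the lower side. The list holds the kinases, kinesins and anaphase genes that are expressed in late G2 and mitosis, which in an adult ventricle come mostly from cells other than cardiomyocytes. Of 43 members 28 fell (65.1%, beside 2.81% of all genes) and 0 rose, with a list median of -0.33. Levels were low, with list means of 4.62 to 5.12 in pregnancy arrays and 4.94 to 5.52 in exercise arrays. Array medians averaged 4.97 and 4.98. Against NP/Sed the list median was -0.01 in pregnancy and 0.34 in exercise. By stage, 1 fell in MP (1.02% of all genes), 31 in LP (4.1%) and 17 in 0PP (0.786%; medians -0.15, -0.47 and -0.37). The shift was larger against 7EX (median -0.50) than against 21EX (-0.17), and the spindle gene Aspm was the 1 gene of all tested (0.0055%) that differed between the durations.

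Cdk1, the kinase that starts mitosis, had 5.99, 6.28 and 5.91 in MP, 5.11, 5.41 and 5.31 in LP and 5.52, 5.69 and 5.79 in 0PP, against 6.54, 6.96 and 7.13 in 7EX and 6.13, 6.18 and 6.19 in 21EX. The 9 arrays of pregnancy were below those of 7EX, and MP-2 lay above the 21EX arrays. The difference was -0.85 ± 0.09 (adjusted p = 2.06e-05), and the stages differed (F test adjusted p = 0.0133). NP/Sed arrays averaged 5.56 (SD 0.21), so pregnancy lay above NP/Sed by 0.11 (adjusted p = 0.707) and exercise by 0.96 (adjusted p = 0.0024). With the beta-actin covariate the Cdk1 difference was -0.56 ± 0.13 (adjusted p = 0.129).

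Other mitotic genes were also lower in pregnancy than in exercise. Ube2c, the ubiquitin-conjugating enzyme of the anaphase promoting complex, fell by 0.83 (SE 0.13), Cks2, a Cdk1 partner, fell by 0.94 (SE 0.14), and the cyclin genes Ccnb2 and Ccna2 fell by 0.75 (SE 0.10) and 0.80 (SE 0.11). Top2a fell by 0.78 (SE 0.13) and the proliferation marker Mki67 by 0.76 (SE 0.14). Cdc20 fell by 0.81 (SE 0.14) at its called probe set and differed by -0.26 (adjusted p = 0.101) at the highest-mean probe set, and for Cenpa, a centromere histone, the values were -0.91 (-0.55 with the beta-actin covariate) and -0.33. DNA replication genes had 11 of 31 lower (35.5%, beside 2.81% of all genes) and 0 higher, median -0.20, among them Mcm2 (-0.59 ± 0.09), Tk1 (-0.39 ± 0.07) and Cdt1 (-0.36 ± 0.06). By stage, 2 of the list were lower in MP (1.02% of all genes), 14 in LP (4.1%) and 2 in 0PP (0.786%). Against NP/Sed the median of the replication list was 0.04 in pregnancy and 0.22 in exercise. Cyclin-dependent kinase inhibitors had 0 of 8 past the test (1 higher and 1 lower at an unadjusted p under 0.05), with Cdkn1a at 0.50 ± 0.17 (adjusted p = 0.155).

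Without the 7EX arrays, 4 cell division genes and 1 DNA replication gene fell, and without the LP arrays 14 and 3 did. Cell division genes that fell numbered 15 by Cyber-T, 16 among probe sets with a mean log2 value of at least 5, and 14 when stages and durations were left out of the model. DNA replication genes that fell numbered 7 without 7EX-2 or 21EX-3 and 6 by Cyber-T. With the beta-actin covariate 0 of the 28 passed in the pooled comparison (25 at an unadjusted p under 0.05, list median -0.28), and 18 of the 31 passed in LP (list median -0.44). Of the DNA replication genes 0 passed with it (13 lower and 1 higher at an unadjusted p under 0.05, list median -0.19), and 9 of the 14 passed in LP.

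Promoters of 3 mitotic genes that fell are shown for TTTGAA, part of the cell cycle homology region that repressor complexes bind in resting cells. Capitals mark that motif on either strand, in the same window and build.
Cdk1 (chr10:69352863-69353162, minus strand): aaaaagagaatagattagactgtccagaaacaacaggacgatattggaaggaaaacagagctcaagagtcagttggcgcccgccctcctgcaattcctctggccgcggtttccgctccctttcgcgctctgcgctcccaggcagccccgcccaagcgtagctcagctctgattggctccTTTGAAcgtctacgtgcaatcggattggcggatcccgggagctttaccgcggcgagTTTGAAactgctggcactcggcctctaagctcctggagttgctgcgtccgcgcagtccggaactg
Ube2c (chr2:164769679-164769978, plus strand): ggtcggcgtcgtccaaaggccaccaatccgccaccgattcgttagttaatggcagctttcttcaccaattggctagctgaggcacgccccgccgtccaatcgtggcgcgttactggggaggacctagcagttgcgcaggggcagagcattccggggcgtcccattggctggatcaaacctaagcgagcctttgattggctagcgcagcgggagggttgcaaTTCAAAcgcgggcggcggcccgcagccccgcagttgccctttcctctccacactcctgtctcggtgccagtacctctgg
Cdc20 (chr4:118437294-118437593, minus strand): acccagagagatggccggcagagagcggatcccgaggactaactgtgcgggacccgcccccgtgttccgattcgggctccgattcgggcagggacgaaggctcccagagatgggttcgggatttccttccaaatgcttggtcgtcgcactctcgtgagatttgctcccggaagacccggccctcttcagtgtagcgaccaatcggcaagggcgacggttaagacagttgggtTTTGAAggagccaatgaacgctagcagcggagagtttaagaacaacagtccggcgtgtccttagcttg
Among 37 cell division genes with a promoter there, 28 held TTTGAA on either strand, against 20.2% of all genes, and 28 of the 37 held CCAAT, against 41.1%. Of the 24 among the 37 that fell, 17 held TTTGAA, so the motif does not set apart the members that fell. Among the 18 clock genes 0 held TTTGAA. As with the E-box these are descriptions of the windows.

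Fatty acid genes passed the test mainly in late pregnancy. Uptake and beta-oxidation genes had 12 of 31 higher (38.7%, beside 2.24% of all genes) and 0 lower in the pooled comparison, with a median of 0.18. By stage, however, 0 rose in MP (0.89% of all genes), 25 in LP (3.2%) and 1 in 0PP (1.04%), with medians of 0.04, 0.41 and 0.07. The stages differed by the F test for 21 of the 31, beside 676 of all genes (3.72%). Acaa2, the last enzyme of beta-oxidation, had 12.26, 12.42 and 12.76 in pregnancy arrays and 12.13, 12.22 and 12.30 in exercise arrays (0.27 ± 0.05, adjusted p = 0.0026), and its stages differed (F test adjusted p = 0.0158). Decr1, an auxiliary enzyme for unsaturated fatty acids, rose by 0.53 ± 0.06 in LP (0.04 in MP), the transporter gene Cd36 by 0.43 ± 0.07 in LP, and Hadha, the trifunctional enzyme, by 0.46 ± 0.06 in LP. Without LP 0 members passed, without 7EX 1, without 21EX-3 or 7EX-3 6, by Cyber-T 5, and in a model without stages and durations 0, and with the beta-actin covariate 0 passed in the pooled comparison (17 at an unadjusted p under 0.05) and 25 in LP, the same genes as without it.

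Other fuel genes gave fewer differences. Pnpla2, the main triglyceride lipase, rose by 0.34 ± 0.07 and the lipid droplet gene Plin4 by 0.36 ± 0.06. Lipogenesis genes had 1 of 16 higher and 2 lower, the 2 being the desaturase gene Scd2 (6.71, 7.12 and 7.35 in pregnancy arrays; 7.56, 7.82 and 7.91 in exercise arrays; -0.69 ± 0.07, adjusted p = 3.08e-05) and its activator Srebf1 (-0.33 ± 0.05). Glucose transport, glycolysis and glycogen genes had 2 of 28 higher and 1 lower, and ketone body enzymes 0 of 5 (2 higher and 3 lower at an unadjusted p under 0.05). Respiratory chain and mitochondrial biogenesis genes had 1 of 35 higher, the coactivator gene Ppargc1a (0.50 ± 0.11, adjusted p = 0.0117).

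Immediate early genes, which neurons and muscle switch on within minutes of a stimulus, were higher in pregnancy. Of 28 members 12 rose (42.9%, beside 2.24% of all genes) and 0 fell, with a median of 0.35 and stage medians of 0.23, 0.31 and 0.38. Fos, a subunit of the AP-1 factor, had 6.67, 7.76 and 8.90 in pregnancy arrays and 5.66, 6.23 and 6.77 in exercise arrays, with LP-2 inside the exercise range (1.36 ± 0.27, adjusted p = 0.00729). Nr4a1, an orphan nuclear receptor, had 1.92 in MP, 0.41 in LP and 0.27 in 0PP, and its stages differed (F test adjusted p = 0.014), with a pooled value of 0.87, or 0.50 with the beta-actin covariate. Egr1 (0.99 ± 0.26, adjusted p = 0.0415), Btg2 (0.76 ± 0.13), Atf3 (0.63 ± 0.12) and Klf4 (0.45 ± 0.08) also rose, and Junb had 0.51 ± 0.14 (adjusted p = 0.0614). Without the 7EX arrays 2 of the 28 rose, and with the beta-actin covariate 0 did (9 at an unadjusted p under 0.05, list median 0.24).

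**Figure D4:**
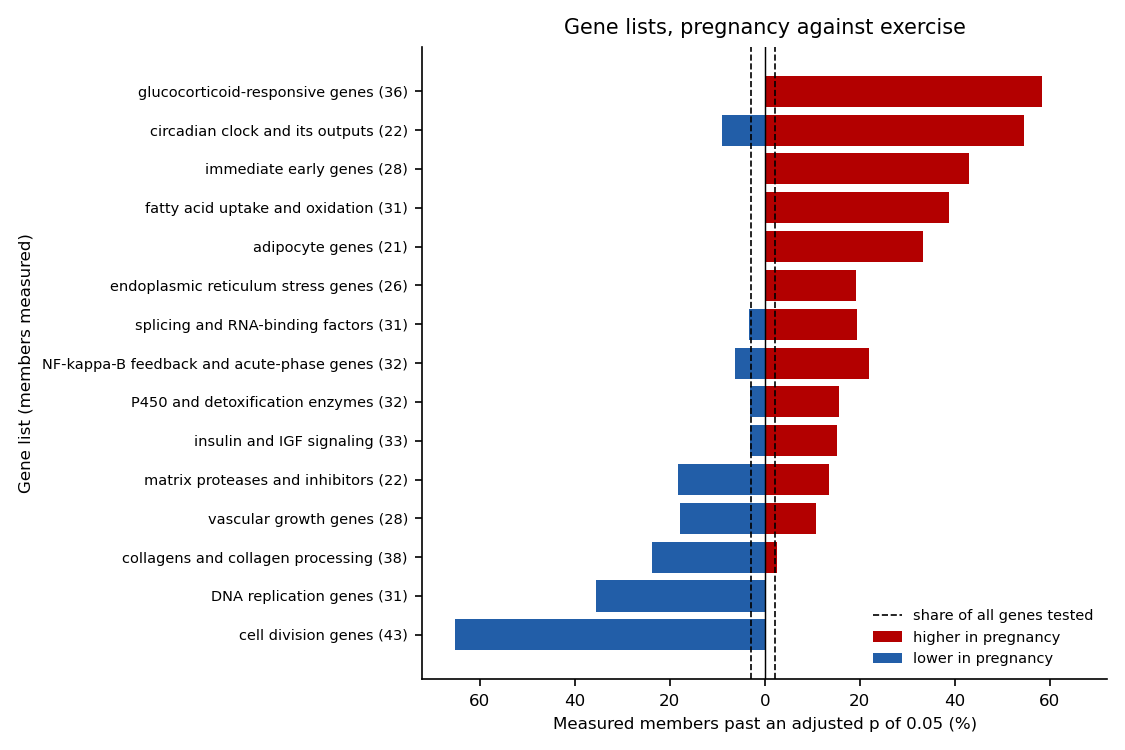
Share of measured list members past an adjusted p of 0.05 (%, horizontal axis) for the 15 lists with at least 5 such members, with members higher in pregnancy to the right and lower to the left of zero, and dashed lines for all genes (2.24% and 2.81%). Bars for glucocorticoid-responsive, clock and immediate early genes reach 58.3%, 54.5% and 42.9% to the right, and the cell division bar reaches 65.1% to the left.

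Collagen genes were lower in late pregnancy than in running, while the inhibitors of matrix breakdown Timp3 and Timp4 were higher in the pooled comparison. Collagens and collagen-processing genes had 9 of 38 lower (23.7%, beside 2.81% of all genes) and 1 higher in the pooled comparison. By stage, 0 were lower in MP (1.02% of all genes), 22 in LP (4.1%) and 2 in 0PP (0.786%), with stage medians of 0.01, -0.37 and -0.01. The stages differed for 21 of the 38 (F test). Col3a1, the main stretchable fibrillar collagen, had 5.67, 6.95 and 7.51 in pregnancy arrays and 7.08, 7.26 and 7.63 in exercise arrays at the probe set tested, a difference of -0.61 ± 0.10 that was -1.46 in LP, -0.05 in MP and -0.33 in 0PP (F test adjusted p = 0.000331), beside -0.22 at its probe set of highest mean. Col4a1, of basement membranes, fell by 0.42 (SE 0.06), and the small proteoglycan gene Bgn fell by 0.54 (SE 0.07). The 1 that rose, Dcn, did so at a probe set of low level (0.55 ± 0.05) and had -0.04 at its probe set of highest mean. Without LP 1 of the 38 fell, without 7EX 3, without MP 15, by Cyber-T 4, and with the beta-actin covariate 0 fell in the pooled comparison (13 at an unadjusted p under 0.05, list median -0.07 in place of -0.13) and 16 of the 22 in LP.

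Matrix proteases and their inhibitors had 3 of 22 higher (13.6%) and 4 lower (18.2%). The 4 were the metalloproteinase genes Mmp14 (-0.30 ± 0.06) and Mmp2 (-0.26 ± 0.06), the plasminogen activator gene Plat (-0.24 ± 0.05) and Adamts10 (-0.22 ± 0.06). The 3 were Timp3 and Timp4, which inhibit metalloproteinases, and Adamts1, a secreted protease of versican. Timp3 had 10.06, 10.30 and 10.65 in pregnancy arrays and 9.20, 9.42 and 9.67 in exercise arrays, with no overlap (0.91 ± 0.09, adjusted p = 1.72e-05). Timp4 had 7.36, 8.68 and 9.45 in pregnancy arrays and 7.31, 7.46 and 7.63 in exercise arrays (1.24 ± 0.16, adjusted p = 0.00013), with 1.83 in LP beside 0.72 in 0PP. Adamts1 had 8.11, 8.44 and 8.91 in pregnancy arrays and 7.30, 7.69 and 7.92 in exercise arrays, also without overlap (0.84 ± 0.11). Tubulins and cytoskeletal genes had 3 of 23 lower in the pooled comparison and 15 in LP (4.1% of all genes, list median -0.39), among them Tuba1a (-0.65 ± 0.09 in LP).

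**Figure D5:**
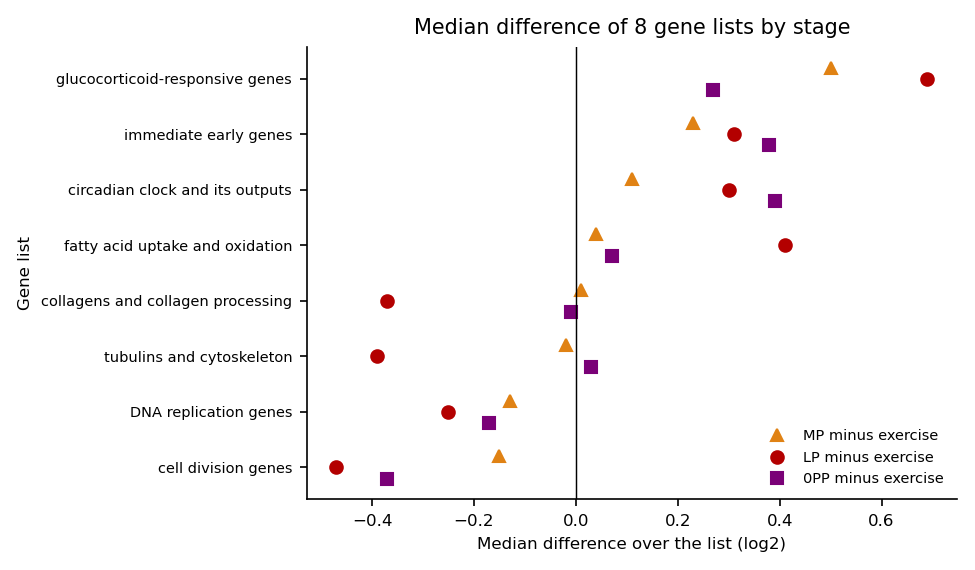
Median difference over the measured members (log2, horizontal axis) of 8 gene lists, with MP, LP and 0PP each against the mean of 7EX and 21EX. Glucocorticoid-responsive genes lie at 0.50, 0.69 and 0.27, while fatty acid genes (0.41) and collagens (-0.37) stand away from zero in LP.

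Vascular and signaling genes moved in both directions. Aplnr, the apelin receptor of endothelium, had 5.83, 6.44 and 7.10 in pregnancy arrays and 7.34, 7.57 and 7.68 in exercise arrays, without overlap (-0.99 ± 0.10, adjusted p = 2.46e-05), and its ligand gene Apln fell by 0.38 (SE 0.10). Sox4, a transcription factor of progenitor and endothelial cells, did not overlap either (8.89, 9.51 and 9.85 in pregnancy arrays; 10.19, 10.41 and 10.59 in exercise arrays; -0.94 ± 0.10). A probe set of Flt1, the VEGF receptor whose soluble form binds placental growth factor, rose by 0.57 ± 0.06, with 0.17 where its mean level was highest, and the endothelin receptor gene Ednrb rose by 0.38 ± 0.06. Vascular growth genes together had 3 of 28 higher and 5 lower. Insulin and IGF signaling genes had 5 of 33 higher and 1 lower, with a list median of -0.01. Of those higher, Pik3r1, Foxo3 and Irs2 are also counted among the glucocorticoid-responsive genes that rose. Igfbp3, which binds insulin-like growth factors, rose by 0.61 ± 0.07 and Eif4ebp1, a brake on translation, by 0.35 ± 0.06, and Igfbp7 fell by 0.38 (SE 0.06).

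Cell type markers gave few differences. Endothelial markers had 1 of 10 higher (Fabp4, 0.69 ± 0.14, beside 0.06 with an adjusted p of 0.578 at the highest-mean probe set) and 1 lower (Cdh5, -0.33 ± 0.06), with list means of 9.15 to 9.33 in pregnancy arrays and 9.20 to 9.40 in exercise arrays, and fibroblast markers had 1 of 10 higher (Dcn) and 2 lower (Tcf21 and Lum), with list means of 10.01 to 10.33 and 10.22 to 10.36. Without overlap, Lyve1, which binds hyaluronan on lymphatic endothelium and some macrophages, rose by 0.66 ± 0.09 (8.64, 8.95 and 9.19 in pregnancy arrays; 8.08, 8.31 and 8.45 in exercise arrays), and so did the macrophage scavenger receptor gene Cd163 (7.51, 7.88 and 8.17 in pregnancy arrays; 7.03, 7.32 and 7.38 in exercise arrays; 0.62 ± 0.07). The other 11 macrophage markers did not pass, and of 6 lymphatic markers Mmrn1 was the only other to rise. Interferon-stimulated genes had 0 of 37 past the test (2 higher and 2 lower at an unadjusted p under 0.05).

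For adipocyte genes the range over the pregnancy arrays exceeded the difference. Adipoq, the adipokine adiponectin, had 4.18, 5.50 and 7.42 in pregnancy arrays and 3.94, 4.22 and 4.89 in exercise arrays (1.24 ± 0.28, adjusted p = 0.0174), and Car3, a carbonic anhydrase of fat and slow muscle, had 7.49, 8.74 and 10.22 in pregnancy arrays and 6.22, 7.48 and 7.74 in exercise arrays (1.51 ± 0.29). Each passed in MP alone (1.92 and 2.07) and not in LP or 0PP. With the beta-actin covariate Adipoq had 0.77 ± 0.47 and Car3 0.80 ± 0.46. The longer list of adipocyte genes had 7 of 21 higher and 0 lower (1 at an unadjusted p under 0.05), with a median of 0.06. Of 6 adipocyte markers 2 rose, Adipoq and Lipe, and the list mean ran from 4.93 to 5.67 in pregnancy arrays and from 4.95 to 5.14 in exercise arrays. The part of adipocyte RNA in these values was not tested.

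Hypertrophy genes of the contractile and natriuretic kind gave few differences. Acta1, skeletal actin, fell by 0.68 (SE 0.14, adjusted p = 0.0117), with 10.77, 11.45 and 12.25 in pregnancy arrays and 11.69, 12.12 and 12.78 in exercise arrays. Nppb had -0.09 ± 0.12 (adjusted p = 0.836) and Nppa -0.40 ± 0.17 (0.255), and Myh7, the beta myosin heavy chain, had 8.97, 9.40 and 11.99 in pregnancy arrays and 9.02, 9.14 and 9.49 in exercise arrays (0.64 ± 0.30, adjusted p = 0.344). Myl1 (0.04) and Myl4 (0.10) did not pass. Nmrk2, a muscle NAD-synthesis kinase, rose by 0.41 (adjusted p = 0.0491), with -0.12 in MP, 0.05 in LP and 1.28 in 0PP and a pooled value of -0.03 without 0PP, and sarcomere and Z-disc genes had 2 of 23 higher.

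Against NP/Sed the called genes lay on both sides of it. The comparisons with NP/Sed share its 3 arrays. Of the 32 genes higher in pregnancy, 13 rose in pregnancy against NP/Sed and 10 fell in exercise against NP/Sed, with medians of 0.62 and -0.46, and the NP/Sed mean lay between the sides for 25. Of the 11 lower, 2 fell in pregnancy against NP/Sed and 6 rose in exercise against NP/Sed (Arntl, Cdc20, Cdk1, Cks2, Fabp7 and Ube2c), with medians of -0.46 and 0.53. Fkbp5 was of the first kind on these arrays, with 1.28 in pregnancy and 0.15 in exercise (limma adjusted p = 0.746 for exercise). The study's PCR, however, had Fkbp5 significantly lower than NP/Sed in both running groups. The clock output Tef was at NP/Sed in pregnancy (-0.05) and below it in exercise (-1.04).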

How the data were processed

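Left ventricular RNA was measured on 18 Affymetrix whole-genome mouse arrays, 3 for each of 6 groups, each array a pool of hearts. The deposited log2 values had been made by the authors with RMA (background correction, quantile normalization and one summary per probe set). GEO's platform annotation gives 34945 of the 45037 non-control probe sets 1 gene (18193 genes, 34741 probe sets with a gene ID in RefSeq), 932 several and 9160 none, and the first kind were used for genes. In limma 3.58.1 (R 4.3.3) 1 model with a mean per group was fitted to all 18 arrays, with two-sided moderated statistics (residual degrees of freedom 12, prior 6.45) and Benjamini-Hochberg adjustment over all probe sets. A gene is shown by its called probe set, or otherwise its probe set, of smallest p; list medians use the probe set of highest mean. The comparison and the 51 lists (1088 of 1180 entries with a probe set) were chosen with earlier results of these data known. Named were the 12 largest called rises and falls (11 fell), genes that the study measured by PCR, up to 4 list members of smallest p and genes opposite between stages; further list members were picked for description after their values were seen. Tested on simulated data with 50 changed probe sets at each size, the pooled comparison recovered 1, 50, 50 and 50 at log2 changes of 0.5, 1, 1.5 and 2 with the 75% limit. A change of 0.5 lies below that limit, and without the limit 47 were recovered. The simulated shift was the same in all 3 stages, with independent noise and no difference in RNA quality, unlike these data. Arrays give no depth, so the number of arrays limits the precision. Alternatives were other filters, scalings, gene summaries, variance models and arrays, Cyber-T (the authors' test, re-implemented), a replicate block and a beta-actin covariate. Promoters are from RefSeq (GRCm38.p6).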

Additional observations from a re-analysis of the deposited data

Results flagged for a closer look

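Groups of 3 arrays are too small for a test of single outlying arrays, so the results below are differences between stages or between durations under the same contrast. F test adjusted p-values come from limma over all probe sets. Alas2, the first enzyme of heme synthesis in erythroid cells, was higher than exercise in MP (1.34) and lower in LP (-0.47), with 0.48 in 0PP (F test adjusted p = 6.91e-06), and the values of Tent5c, which lengthens poly(A) tails, were 1.44 in MP, -0.60 in LP and 0.45 in 0PP (2.34e-05). Erythroid and platelet markers averaged 5.43 to 6.54 over the pregnancy arrays and 5.69 to 5.82 over the exercise arrays. Of these, 4 of 9 rose in MP (0.89% of all genes) and 2 of 9 fell in LP (4.1%), and the part of blood RNA in these values was not tested. A probe set of Vcan, a matrix proteoglycan, was lower in LP (-0.46) and higher in 0PP (0.59), with 0.05 in MP (0.00309), while the Vcan probe set of smallest pooled p had -0.07 in LP and 0.74 in 0PP. Fgf18, a growth factor, had -0.02 in MP, -0.33 in LP and 0.40 in 0PP (0.00268).

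Among the 43 called genes the size differed between stages for 9. LP stood farthest from exercise for Fmo2, a flavin monooxygenase (1.77, beside 0.57 in MP and 0.74 in 0PP, F test adjusted p = 0.00366), Cdk1 (-1.24, beside -0.46 and -0.85, 0.0133), Per2 (0.0177), Per3 (1.33, beside 0.51 and 0.96, 0.0184), Aplnr (-1.44, beside -0.92 and -0.61, 0.0244), Ift122 (-1.43, beside -0.72 and -0.55, 0.0403) and Timp4 (0.0477). MP stood farthest for Fam107a (0.0066) and Nr4a1 (0.014).

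Between the running durations 1 gene passed of 18193. Aspm, a spindle gene chosen after its value was seen, had 3.66, 3.81 and 3.79 in 21EX and 4.48, 4.58 and 4.66 in 7EX (-0.82 ± 0.11, adjusted p = 0.0401), beside 3.32 to 4.09 in the 9 pregnancy arrays. These values lay below the array medians, which averaged 4.97 in pregnancy and 4.98 in exercise.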

How the results depend on the processing

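Of 43 genes called, 1 direction in every stage held for all 43, and the number called was 41 with a mean log2 value of at least 5, 40 after repeated quantile normalization (39 with 1 direction), 42 with median centring, 34 at the probe set of highest mean, 44 with an intensity trend and 43 with Cyber-T (42 shared). Counts changed by over 1.5 times as follows. With no fold limit they were 918 (815 with 1 direction in every stage) for the pooled comparison, 347 for MP, 1327 for LP and 332 for 0PP. With probe sets averaged per gene they were 28, 27, 83 and 20. With the beta-actin covariate they were 5 in the pooled comparison and 0 in MP and 0PP, and 133 of the 150 named genes no longer passed. This measure differed between the sides, so the fit cannot fully separate them. Without MP the pooled count was 67 and without 7EX 27, of which 41 and 24 were among the 43. Leaving out each array gave 35 (without 21EX-3) to 49 (without 21EX-1) for the pooled comparison, 27 (without MP-3) to 63 (without MP-2) for MP, 120 to 166 for LP and 16 (without 0PP-1) to 39 for 0PP, which also had 21 without 7EX-2 or 21EX-3. Single genes turned sign: Psmc6 (-0.05), Dcn (-0.04) and Cx3cl1 (0.03) at the probe set of highest mean, Tent5c without MP (-0.08) and Nmrk2 without 0PP (-0.03). In a model of 9 arrays against 6 without stage or duration terms 38 genes were called. Replicate numbers did not pair the arrays (mean r = -0.0272 over 45 same-number pairs, 7 over 0.1, 6 of 18 arrays best with their own number), and the replicate block gave 43 genes, the same 43. List counts under other settings and named genes without a group were alternatives chosen after seeing the data. Beyond the settings themselves, the causes were not tested.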

Other observations

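Among the other lists, some of which share members with those above, endoplasmic reticulum stress genes had 5 of 26 higher in pregnancy and 0 lower. Their stage medians were 0.02 in MP, 0.02 in LP and 0.26 in 0PP. Over all genes 2.24% were higher and 2.81% lower, the shares that apply to each count in this paragraph. Chac1, a glutathione-degrading enzyme of the stress response, rose by 0.40 ± 0.07, Ddit3, which encodes the stress factor CHOP, by 0.30 ± 0.07, and the chaperone gene Hspa5 by 0.19 ± 0.05 (limma adjusted p = 0.0482, beside 0.105 at its probe set of highest mean). NF-kappa-B feedback and acute-phase genes had 7 of 32 higher and 2 lower, with Nfkbia, the inhibitor of NF-kappa-B, at 0.44 ± 0.08. Of those higher, Nfkbia, Cebpb and Cebpd are also counted among the glucocorticoid-responsive genes that rose. Splicing and RNA-binding factors had 6 of 31 higher and 1 lower, and detoxification enzymes 5 of 32 higher and 1 lower. Sult1a1, a detoxification enzyme that rose, is also counted on the glucocorticoid-responsive list. Potassium channels had 1 of 17 higher and 1 lower, and calcium handling and sodium channel genes had 1 of 20 higher and 2 lower.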
